A study of Mus musculus with 4 samples.

Results

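The Serpinb cluster on mouse chromosome 1 was examined in an ATAC-Seq comparison of immortalized mouse embryonic fibroblasts (MEFs) with and without HAT1, the acetyltransferase that modifies newly synthesized histone H4. In ATAC-Seq the Tn5 transposase inserts sequencing adapters into open chromatin, so the read count over a site follows its accessibility. The cluster was taken as 8 genes, Serpinb2, Serpinb5, Serpinb7, Serpinb8, Serpinb10, Serpinb11, Serpinb12 and Serpinb13. Its sites were those overlapping the body of one of these genes, or lying within 50 kb of its transcription start site (TSS), in the GENCODE annotation of mm10. By this rule 9 of the 82325 sites of the deposited table belonged to the cluster. The cluster was selected on measured values, since it was proposed after the Serpinb8 promoter site was seen to be lower in KO than in WT in these same 4 libraries. All KO against WT values of the 9 sites are therefore descriptions, and no p-value is given for any of them.

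There were 4 libraries, 2 from HAT1+/+ lines (WT replicates 1 and 2) and 2 from HAT1−/− lines (KO replicates 1 and 2). All lines came from the C57bl6 background, were MEFs immortalized with the SV40 T antigen (imMEFs), which inactivates p53 and Rb in both genotypes alike, and were grown in the same serum-containing medium without any treatment. Each library was one line, so the spread within a genotype is the spread between 2 lines. WT replicate 1 and KO replicate 2 carry the same number in their line names, which the labels do not explain, and the other lines carry numbers of their own. The values are normalized read counts, which the authors scaled per library and rounded to whole numbers. Normalized totals over all sites ran from 8008069 to 8516263, and the reads behind them were estimated at 5650000 to 11400000 per library, with KO replicate 2 the shallowest. The promoter site of Hat1 itself had values of 390 and 384 in WT and 438 and 368 in KO, a readout that does not test for the protein or for the deleted part of the gene. Of 10 fibroblast marker genes, 9 had a promoter site, with WT means of 92.5 to 784.5 and log2 fold changes from −0.16 to 0.34. The exception was Pdgfra. None of the keratinocyte genes Trp63, Krt14, Krt1, Dsg3 and Dsc3 and none of the blood cell genes Ptprc, Spi1 and Adgre1 had one. Krt5, Krt10, Csf1r and Cd68 of the same lists did, with WT means of 55.0, 183.5, 24.0 and 176.0. Krt10 was lower in both KO lines (−0.19), and the fibroblast genes Col1a1 and Vim were higher in both (0.14 and 0.27). Summed over each list in the order WT replicate 1, WT replicate 2, KO replicate 1 and KO replicate 2, the values were 2638, 3021, 3015 and 3174 for the fibroblast genes and 229, 248, 239 and 198 for the 2 of 7 keratinocyte genes with a site. The sums for the 2 of 5 macrophage and blood genes with a site were 212, 188, 237 and 172. The 3 of 4 simple epithelium genes with a site gave 196, 132, 172 and 112, with log2 fold changes of −0.15 for Epcam, −0.54 for Cdh1, which was lower in both KO lines, and −0.07 for Krt8. The 3 of 4 endothelial genes with a site gave 312, 232, 203 and 262, with 0.44 for Pecam1, −0.18 for Kdr and −0.73 for Tek, none of them lower or higher in both KO lines. No promoter site of these 5 lists was called lower or higher in KO, and the part of other cell types in the cluster values was not tested.

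Serpins are protease inhibitors that offer an exposed loop to a target protease. Cleavage of the loop makes the serpin refold and trap the enzyme. The B clade lacks a classical secretion signal and acts largely inside cells. Its members are best known from squamous epithelium, leukocytes and stressed or inflamed tissue. In mice the clade lies in one cluster on chromosome 1 and another on chromosome 13. Serpinb2 encodes plasminogen activator inhibitor type 2, an inhibitor of urokinase that is strongly inducible in macrophages and fibroblasts. Serpinb8 encodes an inhibitor of furin-like and trypsin-like proteases. Serpinb5 encodes maspin, an epithelial protein without classical inhibitory activity. Serpinb7, Serpinb12 and Serpinb13 are expressed mainly in epithelia, and Serpinb10 in cells of the bone marrow. AP-1, the family of Fos and Jun dimers, is a stimulus-responsive transcription factor that binds accessible sites in fibroblasts.

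The sequences of the 3 regions with the most to show are printed first. They are the promoters of Serpinb8 and Serpinb2, the only members with a promoter site, and the strongest site upstream of Serpinb2. Each has 300 bases of the + strand, and capitals mark TGANTCA, the pattern searched for AP-1, in which N is any base. The pattern reads the same on both strands. The promoters are RefSeq sequences of GRCm38.p6, from 250 bases before to 50 bases after the start, at chr1:107589756-107590055 for Serpinb8 and chr1:107511173-107511472 for Serpinb2. The third is the centre of the site 5.1 kb upstream of Serpinb2, at chr1:107505967-107506266 of GRCm38.
Serpinb8 promoter: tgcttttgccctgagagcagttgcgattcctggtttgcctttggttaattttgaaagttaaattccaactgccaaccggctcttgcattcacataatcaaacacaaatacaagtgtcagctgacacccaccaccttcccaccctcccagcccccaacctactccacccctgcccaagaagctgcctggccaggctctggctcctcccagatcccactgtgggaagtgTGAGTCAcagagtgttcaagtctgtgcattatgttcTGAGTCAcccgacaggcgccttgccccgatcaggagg
Serpinb2 promoter: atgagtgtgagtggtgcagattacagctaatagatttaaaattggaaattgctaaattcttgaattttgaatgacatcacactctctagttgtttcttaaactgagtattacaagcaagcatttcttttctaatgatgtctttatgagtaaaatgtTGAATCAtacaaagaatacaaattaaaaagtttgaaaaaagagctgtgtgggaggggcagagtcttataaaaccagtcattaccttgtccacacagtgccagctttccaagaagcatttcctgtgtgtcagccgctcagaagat
Serpinb2 5.1 kb upstream: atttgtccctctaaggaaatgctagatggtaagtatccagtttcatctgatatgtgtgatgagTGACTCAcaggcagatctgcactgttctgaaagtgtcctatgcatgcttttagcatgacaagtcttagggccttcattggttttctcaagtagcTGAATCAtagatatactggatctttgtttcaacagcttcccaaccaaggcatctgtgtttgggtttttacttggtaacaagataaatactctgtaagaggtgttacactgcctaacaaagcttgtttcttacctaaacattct

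The Serpinb8 promoter held TGAGTCA at 2 places, starting at −23 and 13 relative to the RefSeq start. The Serpinb2 promoter held TGAATCA once, starting at −94. The upstream site held TGACTCA and TGAATCA. Among the 9 cluster sites, 5 held the motif in the 300 bases around their centre, against 37.7% of all sites. Of the other 8 motifs searched, CANNTG (E-box) was in 6 of 9 sites against 77.8% of all sites, CCAAT in 3 against 32.5%, GGAAGT (ETS) in 2 against 20.6%, and TATAAA and GGAATG (TEAD) each in 1, against 14.6% and 24.7%. GGGCGG (GC box), TGTGGT (RUNX) and AGGGGGC (CTCF core) were in 0 of the 9, against 17.3%, 26.6% and 7.43% of all sites. Motifs were searched on both strands. A match describes letters only and says nothing of a bound factor.

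The letters TGANTCA were not limited to the promoters with a site. Of the 8 member genes, 7 had a RefSeq promoter, and all 7 of these held TGANTCA, in 8 of 9 promoter windows. The Serpinb2 windows overlap and share the same copy. Only the copies of Serpinb7 and Serpinb8 had TGAGTCA. All other copies had A or T in the middle, so the shares given here are for the looser pattern TGANTCA, not for TGAGTCA. Over the genome, 7.81% of 32851 RefSeq promoters and 8.97% of 27025 genes held it. Of the 4 Serpinb3 genes that lie inside the same cluster, 0 held it, and of the 14 chromosome 13 Serpinb genes with a RefSeq promoter, 0 held it. This motif was picked out of the 9 after its matches had been counted, so the shares are a description. The 5 member promoters that held the motif without having a site in these cells are shown as 31 bases of the + strand with the motif in capitals, to set beside the promoters of Serpinb8 and Serpinb2.
Serpinb5, chr1:106861023-106861053: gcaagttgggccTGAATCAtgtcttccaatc
Serpinb12, chr1:106934392-106934422: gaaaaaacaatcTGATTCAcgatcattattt
Serpinb11, chr1:107362226-107362256: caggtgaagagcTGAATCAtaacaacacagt
Serpinb7, chr1:107422632-107422662: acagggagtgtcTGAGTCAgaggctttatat
Serpinb10, chr1:107528937-107528967: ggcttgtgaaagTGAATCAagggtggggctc

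The motif started at −140 in Serpinb5, −45 in Serpinb12, −76 in Serpinb11, −45 in Serpinb7 and −54 in Serpinb10, counted from the RefSeq start of each gene. Serpinb11 held a second copy at −181. The RefSeq starts of Serpinb7 and Serpinb11 lie downstream of the GENCODE gene starts from which distances to sites were taken. The Serpinb7 copy had the letters TGAGTCA, as in Serpinb8, and those of Serpinb5, Serpinb11 (at −76) and Serpinb10 had TGAATCA, as in Serpinb2.

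The sites were spread unevenly over the genes. The body of Serpinb5 (chr1:106861173-106883348) held no site, but 3 intergenic sites lay within 50 kb of its TSS. Serpinb2 (chr1:107511423-107535478) had 5 sites, of which 1 spanned its TSS and 4 lay upstream. The same 5 sites counted for Serpinb10 (chr1:107529003-107549271), which overlaps the end of Serpinb2 and is annotated as a polymorphic pseudogene. Its own TSS was 17.4 kb from the nearest site. Serpinb8 (chr1:107590006-107610484) had 1 site, spanning its TSS. The other 4 members, Serpinb12, Serpinb13, Serpinb11 and Serpinb7, had none, their TSSs lying 50.3, 96.8, 120 and 81.9 kb from the nearest site, and the Serpinb3a, Serpinb3b, Serpinb3c and Serpinb3d genes between them had none either. All 8 members are transcribed from the + strand. A stretch of 597 kb, from chr1:106884193 to chr1:107481553, had no site. Of 82304 gaps between neighbouring sites, 429 (0.521%) were longer, and the median gap was 10.8 kb. The 9 sites thus formed a group of 3 around Serpinb5 and a group of 6 spanning 109 kb from Serpinb2 to Serpinb8.

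The Serpinb8 promoter site (chr1:107589795-107590336, 542 bp) had the widest gap between genotypes in the cluster. Its values were 103 and 130 in WT and 9 and 5 in KO. Both KO lines were more than 10-fold below both WT lines. The WT mean was 116.5 ± 19.1 and the KO mean 7.0 ± 2.83 (SD, n = 2 each), so KO held 6.01% of the WT value, a 16.6-fold difference. On the log2(value + 1) scale the fold change was −3.91 (limma SE 0.45), and it was −3.55 for KO replicate 1 and −4.28 for KO replicate 2 against the WT mean. An estimated 303 reads in WT and 11 in KO lay behind these values. By reads the KO level was 5.87% of WT, with an exact 95% interval of 2.9 to 10.7% that covers counting error only. In WT the site was ordinary for the genome. Its 21.5 normalized counts per 100 bp stood at the 77.5 percentile of all sites, and its 1.29 in KO at the 0.392 percentile. In a bulk assay, fewer cells with the site open and less accessibility per cell cannot be told apart.

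Serpinb2 had the only other member promoter site (chr1:107511193-107511581, 389 bp). Its values were 25 and 26 in WT and 8 and 3 in KO, the last of which is about 2 reads. Both KO lines were well below both WT lines, which differed from each other by 1. The means were 25.5 ± 0.707 and 5.5 ± 3.54, KO held 21.6% of the WT value, and the log2 fold change was −2.14 (SE 0.76). By reads the KO level was 22.4% of WT, with a counting interval of 9.8 to 45.2%. This promoter was weaker in WT than that of Serpinb8, at 6.56 normalized counts per 100 bp against 21.5.

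The strongest site upstream of Serpinb2 lay 5.1 kb from its TSS (chr1:107505868-107506364, 497 bp), with 98 and 100 in WT and 16 and 11 in KO. In WT it was nearly as accessible per length as the Serpinb8 promoter, at 19.9 per 100 bp. In KO it had the highest value per length among the 6 sites of this group, at 2.72. The log2 fold change was −2.81 (SE 0.38), and KO held 13.6% of the WT value. An estimated 255 WT reads and 22 KO reads gave an interval of 8.59 to 21.6%. The site 9.0 kb upstream (chr1:107502129-107502410, 282 bp) had 40 and 36 in WT and 5 and 3 in KO. The site 12.1 kb upstream (chr1:107499050-107499369, 320 bp) had 30 and 31 in WT and 4 and 2 in KO. KO held 10.5% and 9.84% of the WT values of these sites, and their log2 fold changes were −2.99 (SE 0.66) and −3.02 (SE 0.79). The farthest, 29.6 kb upstream (chr1:107481554-107481844, 291 bp), had 21 and 21 in WT and 5 and 3 in KO, a log2 fold change of −2.17 (SE 0.83). In each of these sites the WT lines were close together and the KO lines lay below them without overlap, although 7 or fewer KO reads lay behind each of the last 3.

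**Figure D1:**
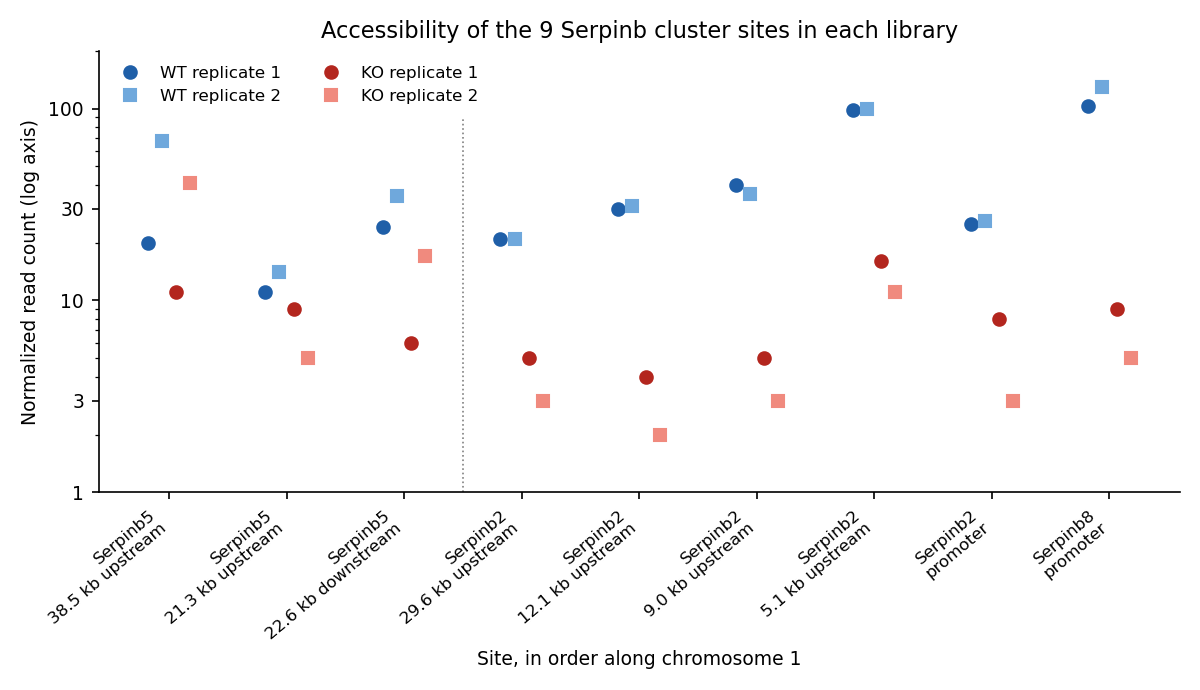
Normalized read counts on a log axis for the 9 Serpinb cluster sites, in their order along chromosome 1, with one point per library (blue, WT; red, KO). Right of the dotted line, all 6 sites from Serpinb2 to Serpinb8 have WT values of 21 to 130 and KO values of 2 to 16, and left of it, at Serpinb5, the libraries lie closer together.

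The 3 sites around Serpinb5 had smaller and less even differences. The site 22.6 kb downstream of the TSS (chr1:106883812-106884192, 381 bp), just past the gene end, had 24 and 35 in WT and 6 and 17 in KO, a log2 fold change of −1.42 (SE 0.66). The site 21.3 kb upstream (chr1:106839701-106839905, 205 bp) had 11 and 14 in WT and 9 and 5 in KO. Its log2 fold change was −0.79 (SE 0.85), and the counting interval of the KO level, 24.6 to 109% of WT, took in an equal level. It was among the weakest sites of the table, at the 2.26 percentile of WT values. The site 38.5 kb upstream (chr1:106822081-106822690, 610 bp) had 20 and 68 in WT and 11 and 41 in KO, and here the genotypes overlapped, since KO replicate 2 exceeded WT replicate 1. Those are the lines whose names share a number, and between them the other 8 cluster sites were lower in KO. The site lay nearer to Vps4b, 25.4 kb from that TSS. Its log2 fold change of −0.76 (SE 0.81) was made up of −1.67 for KO replicate 1 and 0.14 for KO replicate 2. On the log2 scale, replicate 1 minus replicate 2 was −1.72 in WT and −1.81 in KO, both larger in size than the difference between genotypes.

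Counted over the cluster, 8 of the 9 sites were lower in both KO lines than in both WT lines, and 14.3% of all sites were. Across all sites, limma at an unadjusted p under 0.01 and a log2 fold change of at least 1 in size called 0.302% lower and 0.0705% higher in KO. Of the cluster sites 4 were called lower and 0 higher. The 4 were the Serpinb8 promoter and the sites 5.1, 9.0 and 12.1 kb upstream of Serpinb2. No site of the genome had an adjusted p under 0.05, and 2579 had an unadjusted one under 0.05. All 6 sites from Serpinb2 to Serpinb8 had each KO value at least 2-fold below the lower WT value, as did 1.08% of all sites. Because the rule started from this contrast, these shares are given for scale and support nothing further. The 886 such sites of the genome fell into 677 runs of consecutive sites. The 6 from Serpinb2 to Serpinb8 formed 1 of 7 runs with at least 6 sites, and the longest run, on chromosome 4, had 17.

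The median log2 fold change of the 9 sites was −2.17 (−2.10 for KO replicate 1 and −2.73 for KO replicate 2), against 0.01 over all sites. The 6 sites from Serpinb2 to Serpinb8 had a median of −2.90 and the 3 at Serpinb5 one of −0.79. Summed values of the group of 6 were 317 and 344 in WT and 47 and 27 in KO, so KO held 11.2%. Those of the group of 3 were 55 and 117 in WT and 26 and 63 in KO, so KO held 51.7%, and KO replicate 2 exceeded WT replicate 1. The lines were also less alike around Serpinb5. The median difference between the WT lines was 0.53 on the log2 scale in the group of 3 and 0.05 in the group of 6, and between the KO lines 1.36 and 0.66. Over the 4 libraries, the sites most like the Serpinb8 promoter by Pearson correlation were those 5.1, 12.1 and 29.6 kb upstream of Serpinb2, with r of 0.9986, 0.9981 and 0.9966. The Serpinb5 sites had r of 0.3425 to 0.8882. These correlations have 4 points each, which share the split by genotype.

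The other Serpinb genes, on chromosome 13, were set beside the cluster as its nearest relatives. By the same position rule 40 sites belonged to 15 genes there. Their median log2 fold change was −0.05, with a range of −1.47 to 0.83. Both KO lines were below both WT lines at 10 of the 40 and above them at 4, against 14.3% and 14.6% of all sites, and none was called. Summed values were 3004 and 3211 in WT and 2897 and 3022 in KO. The promoter site of Serpinb6a, a broadly expressed inhibitor, had 302 and 356 in WT and 341 and 346 in KO, with overlapping genotypes. The promoter of Serpinb9, an inhibitor of granzyme B, had 128 and 139 in WT and 123 and 143 in KO, again overlapping. Serpinb6b had the most negative promoter value of the 6 genes there with a promoter site, with 70 and 69 in WT and 27 and 62 in KO and a log2 fold change of −0.75. The cluster sites and the chromosome 13 sites shared only −1.47 to −0.76 of their ranges, which held 3 of the 9 cluster sites.

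Genes whose products work with or against these serpins were also measured, from a list of 11 proteases and partners, of which 10 had a promoter site. The values were 324 and 193 in WT and 213 and 197 in KO for Plau, which encodes urokinase, the target of Serpinb2. They were 203 and 202 in WT and 209 and 200 in KO for Plat, the tissue-type activator, and 243 and 189 in WT and 279 and 153 in KO for Plaur, the urokinase receptor. All 3 overlapped between genotypes. Furin, a protease that Serpinb8 inhibits, had 82 and 166 in WT and 122 and 158 in KO, within the WT range. Serpine2 and Ctss were lower in both KO lines, at −0.47 and −0.73. Ctsl, Ctsb and Gzmb overlapped between genotypes, at −0.04, −0.20 and −0.09, and Ctsg had no promoter site. The log2 fold changes of the 10 ran from −0.91 at Ctsk to 0.25 at Furin, and none was called.

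**Figure D2:**
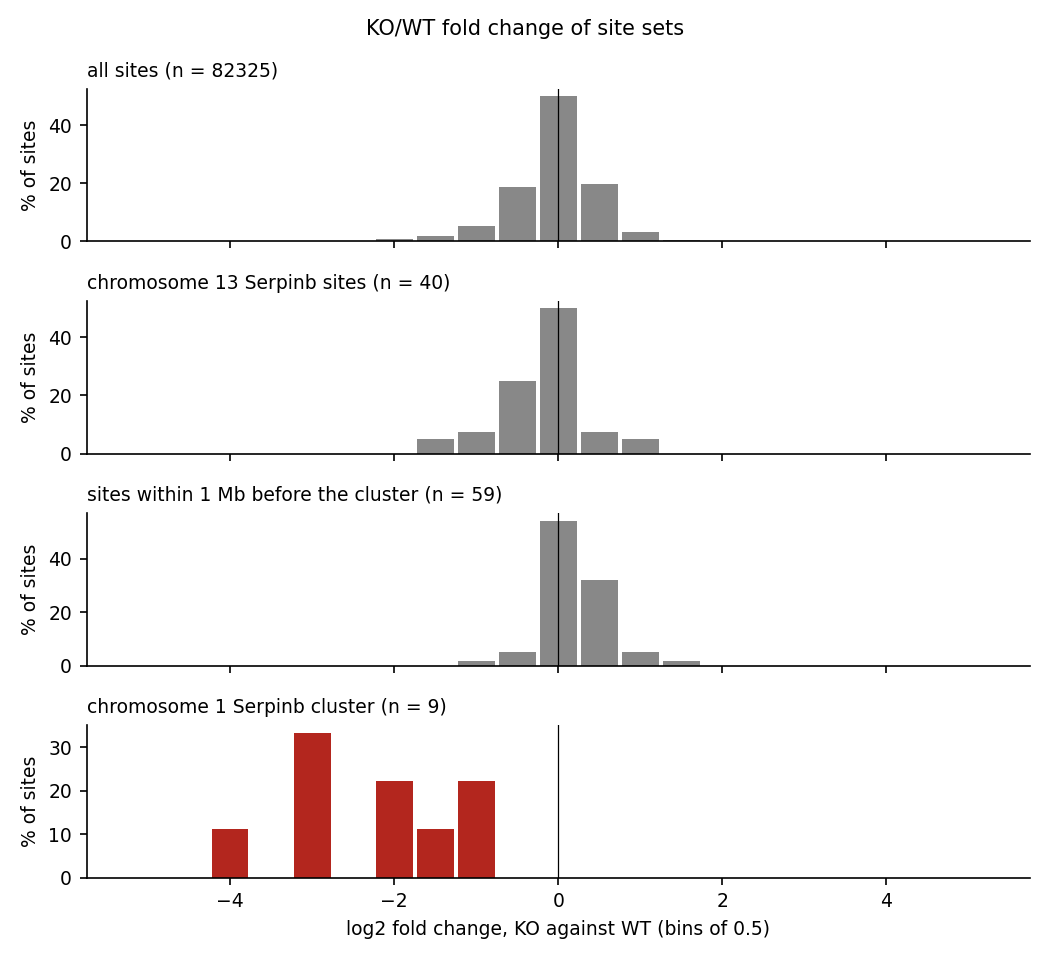
Share of sites in bins of the KO against WT log2 fold change, for all 82325 sites, the 40 chromosome 13 Serpinb sites, the 59 sites within 1 Mb before the cluster, and the 9 cluster sites (red), each panel with its own vertical scale. The cluster sites lie between −3.91 and −0.76, while the other 3 sets centre near 0.

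The sites before and after the cluster differed from each other. The nearest site outside the 50 kb limit was the Vps4b promoter, 64.2 kb from the Serpinb5 TSS, with 261 and 284 in WT and 297 and 287 in KO. Kdsr, a gene of sphingolipid synthesis, had 592 and 642 in WT and 668 and 630 in KO at its promoter. Bcl2, the antiapoptotic gene next to it, had 246 and 219 in WT and 194 and 191 in KO. The Bcl2 promoter was the one of these 3 that was lower in both KO lines, by a log2 fold change of −0.27. Over all 59 sites within 1 Mb before the cluster the median log2 fold change was 0.17. Of these sites, 3 (5.08%, against 14.3% of all sites) were lower in both KO lines. Higher in both were 15 (25.4%, against 14.6% of all sites), and none of the 59 was called. Within 1 Mb after the cluster the table listed 2 sites. The first, 216 kb past the Serpinb8 TSS, had 5 and 43 in WT and 1 and 3 in KO, and the second, at 542 kb, had 37 and 63 in WT and 3 and 8 in KO. Both were lower in both KO lines, with log2 fold changes of −2.52 and −3.04, although the WT lines at the first were far apart.

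Negative values went on well past the last serpin gene. From the site 38.5 kb upstream of Serpinb5 onward, 16 consecutive sites over 5.04 Mb had a log2 fold change below 0, of which 9 were the cluster sites and 7 followed. Of all 82325 sites, 40497 were below 0. The run was counted outward from the cluster sites, which were already known to be below 0. In all, 13 of the 16 were lower in both KO lines, against 14.3% of all sites, and the median was −2.34. Beyond the first 2 that followed, a site 2230 kb past the Serpinb8 TSS had 43 and 72 in WT and 2 and 0 in KO, the most negative value of the run at −5.03, and the next had 14 and 54 in WT and 0 and 2 in KO. Another, at 2890 kb, had 106 and 36 in WT and 36 and 8 in KO, with touching genotypes. The run ended at the Dsel promoter, with 432 and 431 in WT and 199 and 393 in KO, where KO replicate 1 accounted for most of the −0.62. The Serpinb8 promoter was thus within a longer stretch of sites with negative values. By sign alone the stretch began between Vps4b and Serpinb5, but its start is uncertain, because the genotypes overlapped at its first site.

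**Figure D3:**
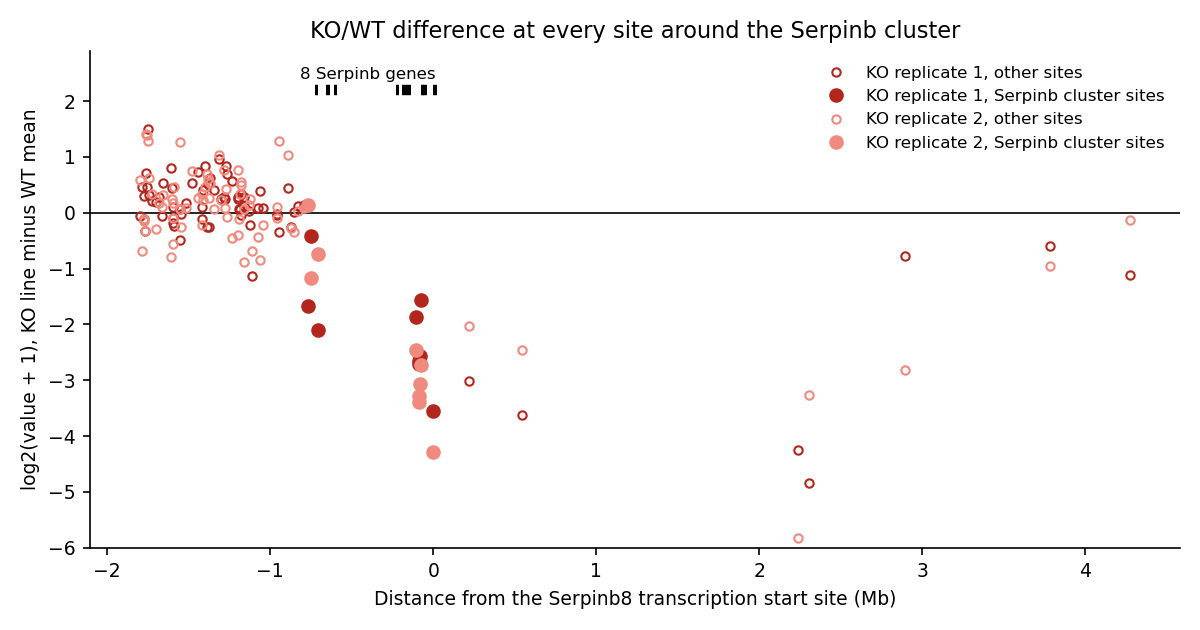
Difference of each KO line from the WT mean on the log2(value + 1) scale, for every site from 1.8 Mb before to 4.6 Mb after the Serpinb8 TSS (filled, cluster sites; open, other sites; black bars, the 8 genes). Sites before the cluster have a median of 0.17, the 3 Serpinb5 sites lie between −2.10 and 0.14, and the 6 from Serpinb2 to Serpinb8 between −4.28 and −1.56.

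The study's methods define domains of lost accessibility from averages of the log2 fold change over a window of consecutive sites. The study listed its domains from primary MEFs, with fold changes from the DiffBind package. The values here are from imMEFs, as differences of log2(value + 1), so a domain found here is not equivalent to one of that list. With windows of 25 sites and a cutoff of −0.58, the averages centred on the 9 cluster sites ran from −1.41 to −1.70, over spans of 3.41 to 6.66 Mb that include the cluster sites themselves. At the Serpinb8 promoter the average was −1.76 for KO replicate 1 and −1.64 for KO replicate 2. Joining windows no more than 1 Mb apart gave 1 domain of 1.43 Mb at chr1:106700522-108132426 that held 16 sites, all 9 cluster sites among them. The domain ended there because the next site lay 1.69 Mb farther on, past the 1 Mb limit. The following 14 windows, centred 2.23 to 10.7 Mb past the Serpinb8 TSS, were still below the cutoff, from −1.83 to −0.59. The mean of the domain was −1.57, and its bounds came out the same from each KO line alone, with means of −1.58 and −1.56. The domain took in the promoters of Bcl2, Kdsr and Vps4b, whose own log2 fold changes were −0.27, 0.07 and 0.10, since a window centred there includes the sites that follow. At the site 38.5 kb upstream of Serpinb5 the average was −1.02 with 15 sites in place of 25 and −0.86 with 51. At the Serpinb8 promoter it was −2.47 and −0.91.

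**Figure D4:**
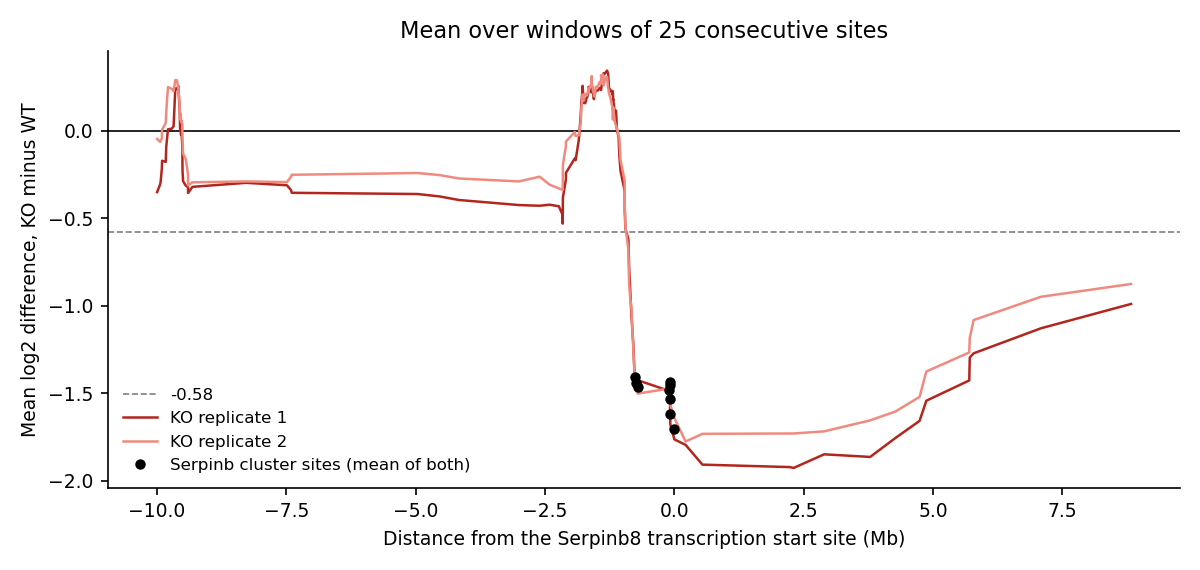
Mean difference from WT over 25 consecutive sites, for each KO line, within 10 Mb of the Serpinb8 TSS (dots, the cluster sites; dashed line, −0.58). Both lines fall together below −0.58 just before the Serpinb5 sites, the cluster sites lie between −1.41 and −1.70, and the averages stay below −0.58 beyond them, down to −1.83 as the mean of both lines.

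The cluster sites lay in AT-rich sequence. Their median GC content was 40.5%, against 48.1% over all sites, and the GC content of the 100 kb around them ran from 38.7 to 41.6%. The Serpinb8 promoter was the GC-richest of them, at 52.6%, close to the median of all promoter sites (55.2%), but it had 1.11 CpG per 100 bp where the median promoter site had 3.22. The Serpinb2 promoter had 37.0% GC and 1.03 CpG per 100 bp. The site 9.0 kb upstream of Serpinb2 had the lowest GC content, 33.0%, at the 0.522 percentile of all sites. Apart from the Serpinb8 promoter, the 4 sites with the least GC, 33.0 to 39.8%, had log2 fold changes of −3.02 to −2.14, and the 4 with 40.5 to 48.0% had −2.17 to −0.76. The Serpinb8 promoter went the other way, with the most GC and the most negative value, −3.91. The split also followed position, since the first 4 were all Serpinb2 sites. The other 4 were the 3 Serpinb5 sites and the one 29.6 kb upstream of Serpinb2. Whether base composition had a part in the values was not tested.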

How the data were processed

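Accessibility was measured by ATAC-Seq in 4 imMEF lines, 2 per genotype. Per the study methods and the processing notes, the authors sequenced Tn5 libraries as paired ends, aligned them to mm10 with BWA 0.7.12, called peaks with MACS2 2.1.0 and compared occupancy with DESeq2. The deposited values are scores, namely read counts per merged site that the authors scaled by a factor per library and rounded to whole numbers. Read filtering, the handling of reads matching several places and the Tn5 offset were not given in the sources used here. The deposited table also holds the fold changes (raw and shrunken) and p-values (raw and adjusted) that the authors computed, none of which was used.

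Sites were annotated with GENCODE vM21. The member genes and all gene lists, motifs and tests were chosen with earlier results of these data known. All members and all their sites are named. One gene of the protease and partner list was left out of the analysis and is not reported here. Values in every library were given for all 9 sites, and likeness to the Serpinb8 promoter was ranked by Pearson correlation. Differences were taken after adding 1 to each value, on the log2 scale, so those of low sites are understated. The design had named a count test, but scaled scores do not allow one, so limma 3.58.1 with an intensity trend (R 4.3.3) was fitted to all 82325 sites, without a filter. It was tested on simulated data, in which 200 planted sites were recovered. The simulated spread was the same at every site, without the counting noise of low sites. The simulation therefore cannot show how limma does at such sites. With 2 lines per genotype its SE borrows strength from other sites, and the labels give the lines of a genotype different numbers without saying whether a number marks an embryo or a litter. The reads behind the values were estimated from whole numbers that scaling and rounding leave over-frequent (WT libraries) or absent (KO libraries). Multipliers from reads to values came out at 0.7145 to 1.507. Exact conditional 95% intervals come from these estimates. A promoter site lay within 3 kb of a TSS; for a gene with several, the one with the highest mean was used. Sequences were read from GRCm38 with pysam 0.24.0 or taken from RefSeq promoters. Replicates were numbered in accession order.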

Additional observations from a re-analysis of the deposited data

How the results depend on the processing

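No paired analysis was possible because only WT replicate 1 and KO replicate 2 share a number in their line names, which leaves 1 pair at most, and replicate numbers follow accessions. Equal totals, quantile normalization, a pseudocount of 8 and leaving out each library in turn were tried, and count tests were not run because the values are scaled. No value of the Serpinb8 promoter, the cluster median, the cluster sum or the window mean changed sign. A pseudocount of 8 brought the Serpinb8 promoter to −3.06, the cluster median to −1.34 and the window mean at the Serpinb8 promoter to −1.11. Quantile normalization brought the cluster sum from −2.35 to −2.12 and that window mean to −1.44. Windows of 15 and 51 sites gave −2.47 and −0.91. Using only the 2 sites at or above the median mean gave a cluster median of −3.36 and a sum of −3.43, with 2 sites lower in both KO lines and 2 called. The shares of all sites above that limit that were lower or called were not counted. A limit of 20 kb left 5 sites, all lower in both KO lines, with a median of −2.99 and a sum of −3.28. A limit of 100 kb added the Vps4b promoter, which brought the sum to −0.88 and left the median at −2.15. Sites whose nearest gene is a member gave a sum of −2.75.

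Leaving out one library at a time gave −4.28 to −3.55 for the Serpinb8 promoter, −2.73 to −2.10 for the cluster median, −2.51 to −2.20 for the cluster sum, −1.81 to −1.60 for the window mean and −0.13 to −0.07 for the chromosome 13 median. The count of sites lower in every KO line was 8 or 9, a check added after the data were seen. Over the other 8 sites, 54 of 56 values stayed below 0. Both exceptions were the site 38.5 kb upstream of Serpinb5, at 0.10 without WT replicate 2 and 0.14 without KO replicate 1. The site called lower lost by quantile normalization left 3 of 4, and limma without the trend or at an unadjusted p under 0.05 called 6. The shares of all sites called lower at these settings were not counted, so the counts have no background beside them. Depth limits the KO values, where 3 normalized counts in KO replicate 2 are about 2 reads.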
